A study of Mus musculus with 30 samples.

Results

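Mouse epiblast stem cells (EpiSCs) of the DBA/2J strain were represented by 2 of the 30 samples of the series, 1 library of RNA and 1 library of accessible chromatin, and each was set against the EpiSCs of C57BL/6 (B6) mice measured in the same assay. The samples were chosen by their strain label. The B6 group held 5 RNA libraries, labelled 1, 2, 4, 44 and 51, and 4 ATAC libraries, labelled 1, 4, 44 and 51. All of these cells were untreated EpiSCs between passages 5 and 10, kept on feeder cells in N2B27 medium with Fgf2, ActivinA and the tankyrase inhibitor NVP-TNKS656, which holds down Wnt signalling. EpiSCs of the PWK/PhJ strain (3 RNA and 2 ATAC libraries) and of B6.129 F1 mice (3 RNA libraries) in the same tables served only for values set side by side. The title of the DBA RNA library carries a replicate number that a PWK sample also bears. The counts of these libraries differed by at least 2-fold at 1428 of the 12796 genes tested. Against the B6 libraries the DBA library differed at 829 to 1945 genes, so the figure shows only that the DBA and PWK libraries are not identical. With 1 DBA library per assay, strain, line and library cannot be told apart in any difference given below. The B6 libraries are told apart by their numbers, and nothing in the labels says whether each is a separate line.

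EpiSCs are taken from the epiblast after implantation and keep the primed form of pluripotency, which rests on Activin and Nodal signalling through Smad2 and Smad3 and on Fgf signalling through Erk. DBA/2J and B6 are old inbred strains that differ by single bases, insertions of mobile elements, copy number and gene copies. At imprinted genes only the copy from the mother or only that from the father is transcribed, a choice kept by DNA methylation at control regions, and in pluripotent lines these marks are known to vary between lines.

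Levels are given as CPM, read counts divided by the library size after scaling with edgeR's TMM factors. Because a single library allows no test, a gene was called only where the DBA level lay at least 2-fold above the highest or below the lowest B6 library, after adding 0.5 CPM to both, and the log2 distance to that nearest B6 library is termed the gap. Total counts were 27168768 in the DBA RNA library and 25084505 to 29947841 in the B6 ones, and 6680997 in the DBA ATAC library and 4256551 to 9571127 in the B6 ones, the lowest being B6 44.

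The ATAC library labelled B6 44 stood apart from the other B6 libraries in the direction of the DBA line. Of the 2211 peaks at least 2-fold higher in DBA than in B6 1, 4 and 51, B6 44 lay above all 3 of those libraries at 79.1%, and the median peak lay 39.8% of the way from the other B6 libraries to DBA. The same figures for B6 1, 4 and 51, each set aside in turn, were 33.6% to 54.0% of peaks and 0.952% to 15.0% of the way. At peaks with at most 3 counts in DBA, B6 44 was under 20% of the other B6 libraries at 199 of 590, against 0 of 414, 2 of 622 and 25 of 697 for the others. In RNA, B6 2 lay above the other B6 libraries at 49.1% of the 167 genes higher in DBA than in those. For each of the others the share was 20.9% to 31.8%. The RNA library of B6 44 did not stand apart in this way, with 26.8% of 149 genes. Its median gene lay 0.954% of the way to DBA, against 10.3% for B6 2. At single loci picked after the values had been seen, B6 2 and B6 44 were both nearer to DBA. Hmga1b, a copy of the chromatin protein gene Hmga1, stood at 8.53, 628, 46.3, 504 and 8.02 CPM in B6 1, 2, 4, 44 and 51 and at 1619.9 CPM in DBA, so that B6 2 and B6 44 fell between the other B6 libraries and DBA. Results that rest on B6 2 and B6 44 are therefore given with and without them, a choice made after the values had been seen. B6 4 was not set aside with them. It too lay on the side of DBA at some pseudogenes, as at Gm13394. There it had 107 CPM, against 0.696 to 1.47 CPM in the other B6 libraries and 3363 CPM in DBA. At such genes B6 4 sets the gap upward.

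The strain label was set beside the levels at loci known to differ between DBA/2J and B6. Alad, which encodes the delta-aminolevulinate dehydratase of heme synthesis and is duplicated in DBA/2J, had 96.2 CPM in DBA and 21.2, 47.4, 31.9, 60.5 and 34.4 CPM in B6 1, 2, 4, 44 and 51. DBA was the highest of the 6, B6 44 and B6 2 came next, and Alad passed the 2-fold distance once B6 44 was set aside. Glo1, the methylglyoxal-clearing glyoxalase that lies in another segment repeated in DBA/2J, had 184 CPM against 83.1 to 145 CPM. Wdfy1, an endosomal adaptor known to differ in level between the strains, had 58.7 CPM against 16.3, 50.9, 13.5, 37.3 and 15.3 CPM, with B6 2 and B6 44 again the nearest. Levels above all B6 libraries were also seen in F1, at Wdfy1 (68.1 to 79.2 CPM) and Glo1 (150 to 170 CPM). PWK had 44.8 to 53.8 CPM and 114 to 125 CPM. Alad had 33.9 to 41.3 CPM in F1 and 24.0 to 29.6 CPM in PWK. Near Glo1, Btbd9 lay inside the B6 range (21.0 CPM against 17.0 to 21.3 CPM) and Glp1r just below it (0.820 CPM against 0.864 to 3.14 CPM). The 6 ATAC peaks over Alad and Hdhd3 (chr4:62499054-62520063, mm10) summed to 173 CPM in DBA and to 52.6, 61.2, 104 and 56.5 CPM in B6 1, 4, 44 and 51, so all 6 lay above the B6 range. The 37 peaks between Btbd9 and Glp1r around Glo1 (chr17:30215524-30936510) summed to 419 CPM in DBA and to 199, 205, 331 and 191 CPM in B6, with 25 above and 1 below the B6 range. Over all tested peaks 33.9% lay above that range and 14.1% below it. Both sums in B6 44 lay between those of the other B6 libraries and that of DBA. None of the 13 tested members of the list of known loci was called, which is near the shares over all genes (0.992% higher and 0.844% lower). Of these members 6 lay above the B6 range and 3 below it, against 19.6% and 21.8% of all genes. The 6 members under 1 CPM (Gabra2, Hc, Ifi202b, Klrd1, Tyrp1 and Dnah8) were not tested. With B6 2 and B6 44 set aside, 2 members were called higher, Alad and Wdfy1.

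In all, 127 of 12796 genes (0.992%) were called higher and 108 (0.844%) lower in DBA. Outside the B6 range at any distance were 2505 genes (19.6%) above and 2788 genes (21.8%) below. For a like comparison each B6 library and the DBA library were set against the same 4 B6 libraries. DBA then had 132 to 167 genes higher and 116 to 144 lower, whichever B6 library was left out. B6 2, 4 and 44 had 21 to 45 genes in each direction, fewer than DBA. B6 1 had 335 genes lower, more than the 126 of DBA, and 43 higher against 139, and B6 51 had 229 higher, more than the 165 of DBA, and 76 lower against 140. Within B6 alone, 3152 genes (24.6%) spanned at least 2-fold. DBA thus had more called genes than the B6 library in both directions for 3 of the 5, and in 1 direction for the other two. With B6 2 and B6 44 set aside the counts were 236 higher and 173 lower.

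**Figure D1:**
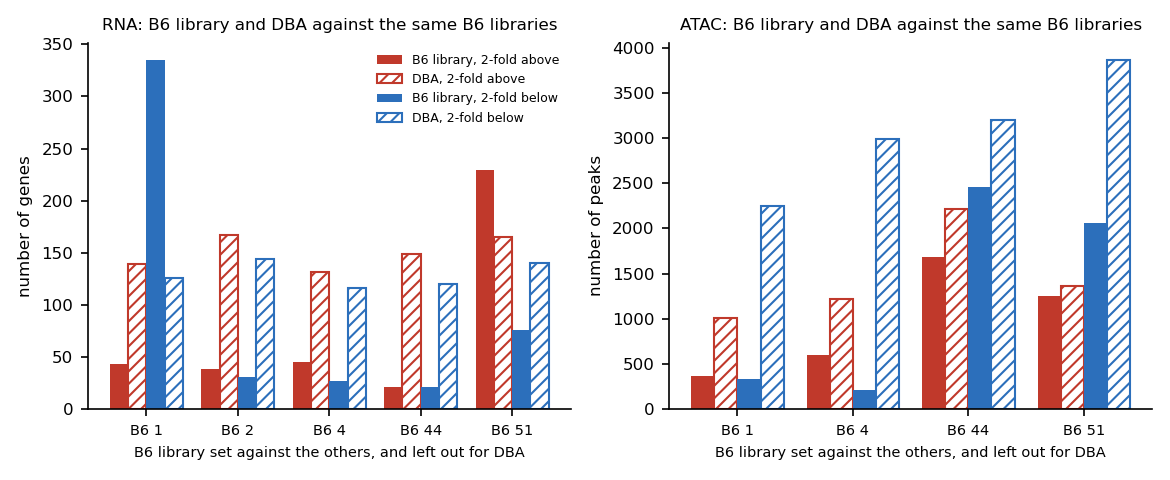
Number of genes (left, RNA) and peaks (right, ATAC) in which a B6 library (filled bars) lay at least 2-fold above (red) or below (blue) all the other B6 libraries, beside the same for DBA (hatched bars) against those same libraries. The hatched bars are taller than the filled ones in every pair for ATAC, and in every pair for RNA except the 335 lower genes of B6 1 and the 229 higher genes of B6 51.

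**Figure D2:**
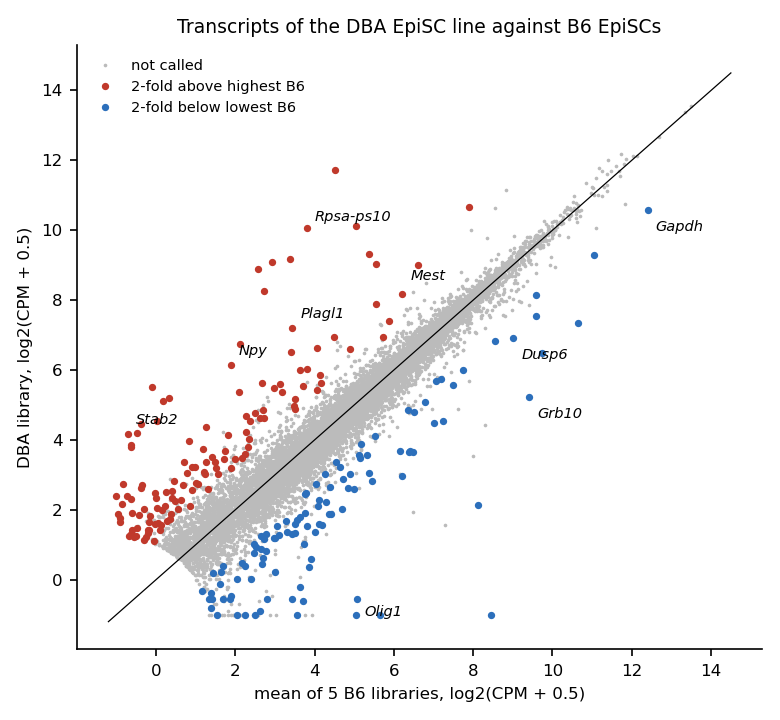
Level of each tested gene in the DBA library against the mean of the 5 B6 libraries, both as log2(CPM + 0.5), with 127 genes at least 2-fold above the highest B6 library in red and 108 at least 2-fold below the lowest in blue. Plagl1 and Npy lie far above the line of equality, and Grb10, Gapdh and Olig1 far below it.

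Imprinted genes held some of the widest gaps. Of the 29 tested members of the list, 6 were called higher (Plagl1, Nnat, Ndn, Mest, Dlk1 and Xlr3b) and 1 lower (Grb10), 14 lay above the B6 range and 4 below it. Over all genes 0.992% were called higher, 0.844% lower, 19.6% lay above and 21.8% below. The median difference of the list was 0.29 (log2) against -0.02 over all genes. Without B6 2 and B6 44 the counts called were the same, 6 and 1. Plagl1, a zinc finger transcription factor that restrains growth and is transcribed from the paternal copy, is at chr10:13090832-13131694. It had 145 CPM in DBA and 8.45, 8.05, 13.9, 6.26 and 14.9 CPM in B6 1, 2, 4, 44 and 51, a gap of 3.25, and no B6 library came near the DBA level. Grb10, the adaptor that damps insulin and growth factor receptor signals and is transcribed mainly from the maternal copy outside neurons, is at chr11:11930499-12037428. Its level was 36.8 CPM in DBA and 971, 582, 773, 715 and 383 CPM in the B6 libraries, the widest gap among the lower genes at -3.36 once gene-model (Gm) symbols are left out.

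Mest, a paternally expressed member of the hydrolase fold family, had 286 CPM in DBA and 46.5, 54.0, 114, 104 and 50.1 CPM in B6. Ndn, the paternally expressed growth suppressor necdin of the Prader-Willi region, had 40.6 CPM against 0.714, 15.2, 3.87, 13.3 and 9.75 CPM, a wide B6 spread that DBA still exceeded. Nnat (neuronatin) had 25.4 CPM against 0.397, 1.14, 9.89, 5.44 and 4.59 CPM. Dlk1, a non-canonical Notch ligand, had 7.61 CPM against 0.675 to 3.42 CPM, and the X-linked Xlr3b 6.23 CPM against 0.0397 to 2.65 CPM, and neither kept its call with 2 CPM added in place of 0.5. Peg3, Impact, Slc38a4, Magel2, Snrpn and Mkrn3 lay above the B6 range without being called. For Peg3, a large zinc finger protein, the values were 875 CPM and 508, 166, 459, 201 and 303 CPM.

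The genes were then divided by the parental copy that textbooks give as the active one, a division made after the values had been seen. Of the 17 tested genes expressed from the paternal copy, 11 lay above the B6 range and 1 below it (Igf2), with 5 called higher and a median difference of 0.91. Some of the 11, such as Ndn and Snrpn, lie in the same Prader-Willi region. The genes counted here, and their start-site peaks counted below, are therefore not all separate loci. Of the 7 expressed from the maternal copy, 1 lay above and 2 below it (Grb10 and Phlda2), with a median of -0.13. Cdkn1c, the maternally expressed cell cycle inhibitor, lay inside the range at 3.73 CPM against 3.53 to 16.7 CPM. The counts above and below were the same without B6 2 and B6 44. Within 500 kb of Plagl1, 1 of 8 tested genes was called (Fuca2, higher), 1 lay above the B6 range and 3 below it. None of 4 was called near Grb10 or of 7 near Mest, where 1 and 4 lay below the range and none above. Over all genes 0.992% were called higher and 0.844% lower, and 19.6% lay above and 21.8% below. With so few neighbours, whether they shared the distance was not tested.

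Accessibility at the starts of the same genes was read from the strongest tested peak within 1 kb of a RefSeq start. Such a peak existed for 12 of the 17 paternally expressed genes, and in 11 of them it lay above the 4 B6 libraries, with a median difference of 0.97 (log2 CPM). For the maternally expressed genes it lay above in 4 of 5, with a median of 0.31. Over all 9130 genes with such a peak, 41.2% lay above the B6 range and 5.99% below it, with a median of 0.18, so the share above is read against that level. Set against B6 1, 4 and 51 alone, the counts above were again 11 of 12 and 4 of 5. At Plagl1 the peak (chr10:13090532-13090926) had 21.3 CPM in DBA and 5.55, 7.70, 11.7 and 14.8 CPM in B6 1, 4, 44 and 51. At Snrpn, a splicing protein gene beside the imprinting centre of the Prader-Willi region, the peak had 23.9 CPM against 8.55, 8.71, 12.1 and 7.68 CPM. At Ndn it had 19.7 CPM against 1.50, 0.810, 17.0 and 2.71 CPM, with B6 44 close to DBA and apart from the other B6 libraries. Grb10 had no tested peak within 1 kb of a RefSeq start.

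The reference sequences around the starts of Plagl1 and Peg3 are shown because their peaks overlie them and because methylation of CG dinucleotides at these starts is what is known to separate the parental copies. They are RefSeq windows of build GRCm38.p6, 250 bases before to 50 after the start, chr10:13090582-13090881 on the plus strand and chr7:6730370-6730669 on the minus strand, with every CG in capitals.
Plagl1: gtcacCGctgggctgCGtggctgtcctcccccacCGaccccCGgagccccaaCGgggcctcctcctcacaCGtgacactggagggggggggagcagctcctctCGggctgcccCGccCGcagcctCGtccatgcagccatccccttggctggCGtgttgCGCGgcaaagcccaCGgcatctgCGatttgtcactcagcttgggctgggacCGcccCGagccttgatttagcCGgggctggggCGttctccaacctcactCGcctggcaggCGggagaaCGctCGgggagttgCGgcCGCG
Peg3: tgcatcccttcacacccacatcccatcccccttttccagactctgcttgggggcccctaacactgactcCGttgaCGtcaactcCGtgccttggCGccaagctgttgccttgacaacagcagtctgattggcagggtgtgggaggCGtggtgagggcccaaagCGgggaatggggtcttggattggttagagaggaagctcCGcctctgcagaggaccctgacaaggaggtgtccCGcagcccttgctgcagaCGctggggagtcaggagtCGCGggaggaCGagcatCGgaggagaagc
Plagl1 held 26 CG dinucleotides and Peg3 13. At least as many were found in 16.9% and 37.9% of all 32851 windows. The letters TGCCGC, searched on both strands because ZFP57 is known to bind them when methylated, occurred 1 time in the Plagl1 window, 0 times in that of Peg3, and at least once in 11.6% of all windows. These are letters of the B6 reference, and no methylation was measured.

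**Figure D3:**
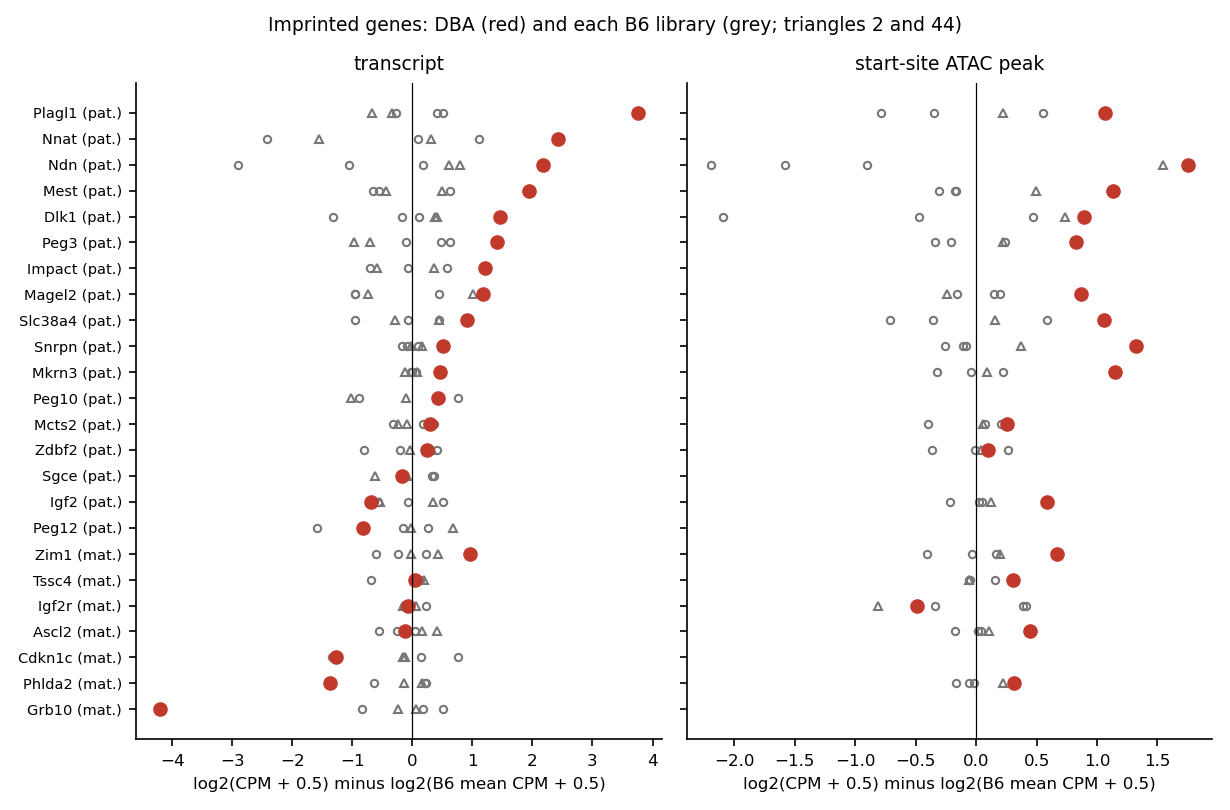
Imprinted genes tested in RNA, ordered by the parental copy expressed (pat., mat.) and by difference, with DBA in red and each B6 library in grey (triangles: B6 2 and B6 44), as log2(CPM + 0.5) minus the B6 mean, for transcripts (left) and start-site peaks (right, where one was tested). DBA lies above the B6 points for 11 of the 17 paternal transcripts and far below them for Grb10.

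Away from imprinted genes, Stab2 led the 12 called genes with the widest gaps upward, gene models and pseudogenes left out. Stab2, a scavenger receptor of sinusoidal endothelium that takes up hyaluronan, had 17.4 CPM in DBA and 0, 0, 0.480, 0.0994 and 0 CPM in B6 1, 2, 4, 44 and 51. Minar1, a regulator of Notch2 signalling, had 5.11 CPM against 0.278 to 0.668 CPM. Npy, the peptide transmitter neuropeptide Y, had 69.9 CPM against 5.91, 0.471, 7.86, 1.39 and 0.452 CPM, a gap of 3.07. The B6 libraries spread widely for Npy, from B6 51 and B6 2 at the bottom to B6 4 at the top, and DBA stood well above all of them.

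Tent5c, a cytoplasmic poly(A) polymerase, had 20.3 CPM against 0.864 to 2.95 CPM, and Rassf4, a Ras association domain protein, 15.1 CPM against 0.339 to 1.98 CPM. Arhgap45, a GTPase activating protein, had 48.6 CPM against 3.98 to 7.90 CPM. Zfp979, one of the zinc finger genes of a repeat-rich cluster on chromosome 4, had 47.8 CPM against 4.48 to 11.5 CPM, and Sfi1, a centrin-binding protein, 64.1 CPM against 7.22 to 16.9 CPM. The other 3 of the 12 were Pm20d1, an enzyme that joins fatty acids to amino acids (8.76 CPM against 0.833 to 1.81 CPM), Cbln2, a synapse organiser (12.9 CPM against 0.849 to 3.14 CPM), and Bche, butyrylcholinesterase (7.87 CPM against 0.476 to 1.84 CPM).

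**Figure D4:**
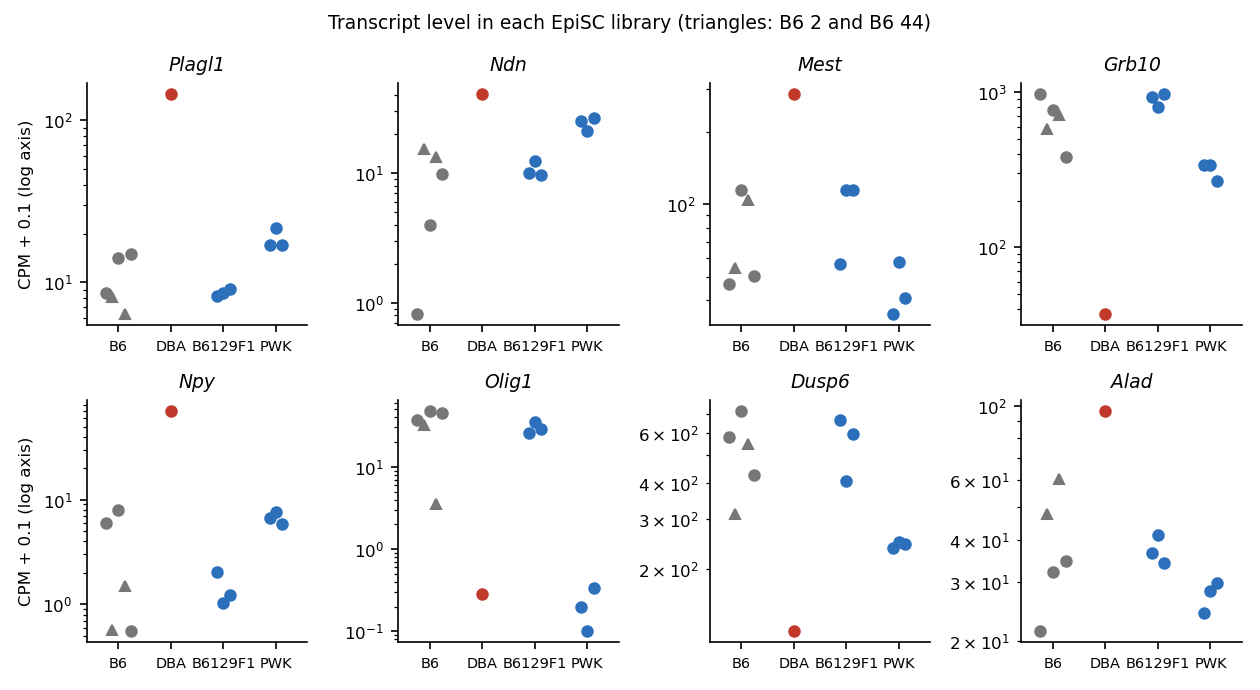
CPM of 8 genes in every EpiSC library on a log axis (0.1 CPM added), with B6 in grey (triangles: B6 2 and B6 44), DBA in red and the B6129F1 and PWK libraries in blue. The single DBA point lies above all B6 points for Plagl1, Ndn, Mest, Npy and Alad and below them for Grb10, Olig1 and Dusp6; for Olig1 the PWK points lie as low.

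Among the 12 widest gaps downward, several genes were close to absent in DBA. Olig1, a basic helix-loop-helix factor of oligodendrocyte and ventral neural progenitors, had 0.186 CPM in DBA (5 counts, exact Poisson 95% interval 0.0605 to 0.435 CPM, for counting error only) and 36.6, 32.0, 47.1, 3.38 and 45.1 CPM in B6. B6 44 was the low one among the B6 libraries. Olig2, its neighbour, had no count in DBA and 0.675, 2.83, 3.91, 0.431 and 5.42 CPM in B6, and was called lower once B6 44, the lowest B6 library, was set aside. Of the 7 tested early neural genes 3 lay below the B6 range and 1, Dlk1, above it, shares to be set beside the 21.8% and 19.6% over all genes. Slc15a2, a peptide transporter, had 1 count in DBA (interval 0.000944 to 0.208 CPM) and 10.3, 4.40, 6.12, 5.10 and 2.63 CPM in B6. Igsf11, an adhesion protein of the immunoglobulin family encoded like these on chromosome 16, had 0.783 CPM against 9.18 to 16.6 CPM.

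Zfp277, a zinc finger protein, had 6.60 CPM in DBA against 37.9 to 47.2 CPM in B6, with B6 libraries close together and DBA far below. Galnt2, an enzyme that starts O-glycosylation, had 1.01 CPM against 6.87 to 19.9 CPM. Rsph3b, a radial spoke protein of motile cilia, had 2.05 CPM against 10.6 to 19.4 CPM. Chac1, a glutathione-degrading enzyme induced by ATF4, had 12.5 CPM against 59.6 to 116 CPM.

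Pseudogenes were called more often than protein-coding genes, in both directions. Of 378 tested RefSeq pseudogenes, 36 (9.52%) were called higher and 13 (3.44%) lower, against 80 (0.661%) and 86 (0.711%) of 12097 protein-coding genes. Rpsa-ps10, a copy of the small ribosomal subunit gene Rpsa, had 1064 CPM in DBA and 8.13, 5.93, 40.9, 6.86 and 5.83 CPM in B6, with B6 4 the highest of the latter. Rpsa itself had 22.6 CPM against 104 to 180.1 CPM, the opposite direction. Tcea1-ps1 had 22.6 CPM against 0.238 to 1.22 CPM and Tgif2-ps2 13.3 CPM against 0 to 0.480 CPM, both higher in DBA. Rpl15-ps3 was lower in DBA, 3.88 CPM against 437, 171, 396, 34.1 and 355 CPM, and B6 44 was again the nearest B6 library.

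Because reads can be shared between a gene and its near-identical copies, these levels and those of the parents are uncertain. Hmga1 had 187 CPM in DBA against 611 to 853 CPM in B6 and was called lower, whereas the sum of Hmga1 and Hmga1b was 1807 CPM against 619 to 1481 CPM, above the B6 range. For Rpsa the sum with its named copies was 1088 CPM against 115 to 204 CPM, also the reverse of the parent. For Rps18, a ribosomal protein gene, parent and sum were both low in DBA, 89.7 CPM against 802 to 909.7 CPM and 112 CPM against 808 to 916 CPM, and so were those of Rpl21 (289 CPM against 736 to 829 CPM for the sum). Copies without such a name could not be added for any of these genes, so each sum, that of Rps18 included, may leave reads out. For Rpl3 (162 CPM against 963 to 2139 CPM) and Gapdh (1542 CPM against 4606 to 5852 CPM) no sum was made.

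Few calls were to be looked for among markers of the cell state, since 0.992% of all genes were called higher and 0.844% lower. With all B6 libraries, none of the 23 tested genes of primed and general pluripotency, of the 8 of naive pluripotency or of the 15 of definitive endoderm was called. That lack of calls is near the share over all genes. Of the 23, 7 lay above the B6 range and 4 below it, against 19.6% and 21.8% of all genes. With B6 2 and B6 44 set aside, or B6 44 alone, 1 naive gene was called lower, and it was Fgf4, an Fgf ligand, in the first case. Under total library size 1 naive gene was also called lower, and without B6 1 an endoderm gene was called higher. Pou5f1, the core pluripotency factor, had 1206 CPM in DBA and 1009 to 1372 CPM in B6, Nanog 148 CPM against 41.6 to 165 CPM, and the epiblast gene Fgf5 218 CPM against 152 to 262 CPM, all inside the range. The median of the endoderm list was -0.82, with 13 of 15 genes inside the wide B6 range. Otx2, a transcription factor of the epiblast, lay just below it at 84.5 CPM against 103 to 185 CPM. All 16 feeder fibroblast genes lay inside the B6 range, and their summed level was 1942 CPM in DBA and 176 to 3467 CPM in B6, so feeder RNA was neither highest nor lowest in DBA. Y-linked Ddx3y was present at 115 CPM. In these bulk samples fewer cells of a type and less RNA per cell cannot be told apart.

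Some genes of the primitive streak stood higher in DBA. Of 8 tested, Kdr, the Vegf receptor of early mesoderm, was called (10.6 CPM against 1.77 to 4.33 CPM), and Eomes, Mixl1 and Wnt3 lay above the B6 range, with none below it, where 19.6% of all genes lay above and 21.8% below. Eomes, the T-box factor of mesendoderm, had 215 CPM in DBA and 66.7, 103, 34.9, 57.8 and 129.9 CPM in B6. Of 11 Wnt target genes, Sp5 was called higher (12.3 CPM against 0.941 to 5.28 CPM), 4 others including Axin2 (37.0 CPM against 11.2 to 31.3 CPM) lay above the range and 1 lay below it. The median differences of these lists were 0.44 and 0.33 against -0.02 over all genes. Sp5 and Kdr did not keep their calls with 2 CPM added.

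Several genes of a list of Fgf and Nodal feedback stood lower in DBA, and those named below belong to its Fgf and Erk part. Of 15 tested, 2 were called lower and none higher, and 8 lay below and 3 above the B6 range. Over all genes 0.844% were called lower, 21.8% lay below and 19.6% above, so the share above was near that of all genes. The list had a median of -0.39. Dusp6, the Erk phosphatase that Erk itself induces, had 121 CPM in DBA and 578, 313, 713, 548 and 425 CPM in B6. Spry4, an inhibitor of receptor signalling upstream of Erk, had 33.5 CPM against 129, 85.6, 128, 99.4 and 104 CPM. Egr1 lay below the range at 95.0 CPM against 166 to 258 CPM, whereas Etv4, another target of Fgf signalling, had 135 CPM against 107 to 130.4 CPM and was just above it. Among 15 tested early genes of the Erk response, a list drawn up after the values had been seen, Egr2 and Nab2 were called lower, 10 lay below the range and 1 above it. With B6 2 and B6 44 set aside 4 of them were called lower, Egr1 and Dusp5 being added, and Egr1 was also the third call of the feedback list.

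Targets of the amino acid response factor ATF4 and enzymes of serine synthesis, also listed after the values had been seen, lay below the B6 range in 17 of 22 cases and above it in none, where 21.8% and 19.6% of all genes did. Phgdh, the first enzyme of serine synthesis, had 113 CPM in DBA and 342, 286, 464, 471 and 310.3 CPM in B6 and was called, as were Chac1, Atf3, Ddit4 and Trib3, 5 of 22 against 0.844% of all genes. Atf4 itself had 305 CPM against 462 to 578 CPM, and Asns, asparagine synthetase, 250.5 CPM against 374 to 702 CPM, both below the range but not called. B6 51 was the lowest B6 library for 12 of the 17. In glycolysis and glucose uptake 8 of 20 genes lay below the range (21.8% over all genes) and 1 above it (19.6%), and Gapdh alone was called lower (0.844%). The level of Gapdh is uncertain, since reads can be shared with near-identical copies and no sum was made. Its values were 1542 CPM in DBA, 4606 to 5852 CPM in B6 and 136 to 181 CPM in PWK. Eno1, enolase, had 1707 CPM against 2871 to 4256 CPM and the glucose transporter gene Slc2a3 247 CPM against 361 to 862 CPM. Of 13 mitochondrially encoded transcripts 8 lay above the range (19.6% over all genes) and 1 below it (21.8%), none by 2-fold, and these transcripts took 3.49% of the DBA counts and 2.63% to 3.10% of the B6 counts.

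Class I genes of the major histocompatibility complex, whose haplotype differs between the strains (H2-b in B6, H2-d in DBA/2J), differed in both directions. The list held 19 tested genes of class I, class II and antigen processing. Of these, H2-Q6, H2-Q2 and the transcribed pseudogene H2-T10 were called higher, against 0.992% of all genes, and none lower. In this list 7 lay above the B6 range and 3 below it, against 19.6% and 21.8% of all genes. H2-T10 and H2-Q2 lost their calls with 2 CPM added. H2-Q6 had 3.99 CPM in DBA, while no B6 library held more than 3 counts, which makes it at least 33.5-fold higher when 3 counts in the shallowest B6 library are taken as the floor. The classical genes H2-K1 (17.4 CPM against 31.3 to 59.6 CPM) and H2-D1 (18.8 CPM against 32.9 to 66.2 CPM) lay below the range. Sequence that differs between the haplotypes also bears on how reads are assigned to these genes, and its part in these values was not tested. Of 23 tested interferon genes, Trim12a (2.42 CPM against 9.81 to 17.0 CPM) and Gbp2 (12.2 CPM against 28.2 to 119 CPM) were called lower and none was called higher, with 6 above the range (19.6% over all genes), 3 below it (21.8%) and a list median of 0.66. With B6 2 and B6 44 set aside, Oas1a and Mx2, both antiviral effectors, were called higher and 11 lay above the range. No gene was called among the lists for DNA methylation (10 tested), axon guidance and adhesion (22), or glutathione and xenobiotic enzymes (14). That is near the shares over all genes, 0.992% higher and 0.844% lower. Above the B6 range lay 4, 6 and 3 of them and below it 1, 3 and 1, against 19.6% and 21.8% of all genes. With B6 2 and B6 44 set aside, 7 of the 10 DNA methylation genes lay above it, and 6 and 3 of the others.

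In chromatin, 787 of 96653 tested peaks (0.814%) were called higher in DBA and 2325 (2.41%) lower. Outside the range at any distance were 32771 peaks (33.9%) above and 13639 (14.1%) below, and the median difference over all peaks was 0.16 (log2). That shift depends on scaling: it was 0.06 with total library size, under which 488 peaks were called higher and 2613 lower, so that higher peaks made up 15.7% of the calls instead of 25.3%. Against the same 3 B6 libraries, DBA had more called peaks than the B6 library in each of the 4 pairs and in both directions. With B6 44 left out DBA had 2211 higher and 3199 lower, against 1684 and 2454 for B6 44, and with B6 51 left out it had 1367 and 3864, against 1250 and 2065 for B6 51. For B6 1 the counts were 1004 and 2249 in DBA against 366 and 330, and for B6 4 they were 1222 and 2992 against 600 and 206.

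Lower peaks lay mostly away from gene starts. Among the 19220 tested peaks within 1 kb of a RefSeq start, 0.536% were called lower, against 2.87% of the 77433 farther ones, and the shares called higher were 0.510% and 0.890%. Peaks at starts were also stronger, with a median B6 level of 8.60 CPM against 4.44 CPM, and the part of that difference was not tested. With B6 44 set aside the shares called lower were 0.963% and 3.56%. Chromosome by chromosome, 1.95% to 3.15% of the peaks of each autosome were called lower, and 9 of 1996 (0.451%) on the X and 19 of 58 (32.8%) on the Y. In windows of 10 Mb with at least 100 tested peaks the share ran from 0.288% to 7.01% on autosomes, with a median of 2.46%, and from 0 to 1.76% on the X. The median difference of an autosome stayed within -0.03 and 0.05 of that of all peaks, and within -0.03 and 0.05 in RNA. On 5 of 19 autosomes in ATAC and 6 in RNA it lay outside the medians of the single B6 libraries for that chromosome.

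Of the 4 called peaks with the widest gaps downward, 3 lay together near the distal end of the Y, at chrY:90742879-90744450. The strongest of them, chrY:90743851-90744210, had 2 counts in DBA and 80.5, 132, 13.8 and 68.8 CPM in B6 1, 4, 44 and 51, with B6 44 the lowest of the B6 libraries. The fourth, chr13:119596363-119596583, 27.3 kb from the start of Ccl28, had no count in DBA and 21.0, 18.0, 6.31 and 27.7 CPM in B6, again with B6 44 lowest. Upward, the widest gap was at chr8:91327589-91327802, 14.2 kb from the start of Fto, with 12.7 CPM against 0.900, 0.709, 2.67 and 0.151 CPM. The others were chr9:44552574-44552818, 112 kb from Foxr1 (10.6 CPM against 2.10, 1.22, 2.18 and 1.36 CPM), chr14:13493519-13493652, 39.6 kb from Synpr (10.9 CPM against 2.10, 2.23, 2.43 and 0 CPM), and chr2:19199195-19199355 at the start of Armc3 (9.31 CPM against 1.35, 1.82, 1.94 and 2.11 CPM).

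Transcripts and start-site peaks were then compared gene by gene. Of the 127 genes called higher, 36 had a tested start-site peak, and it lay above the B6 range in 26 (72.2%), inside it in 10 and below it in none, against 41.2% above over all 9130 genes. Of the genes called lower, 63 had such a peak, and it lay below the range in 5 (7.94%), inside it in 38 and above it in 20 (31.7%), against 5.99% below over all genes. Thus 31 called genes had a peak beyond the range in the same direction and 20 in the opposite one, all 20 of them lower transcripts with higher peaks. When the DBA library was centred on the median of start-site peaks, an alternative added after seeing the data, the peak lay above the range for 20 of 36 higher genes (55.6%, against 20.3% over all genes) and below it for 9 of 63 lower genes (14.3%, against 15.3% over all genes), leaving 29 in the same and 4 in the opposite direction. With B6 44 left out of the ATAC range, it lay above for 28 of 36 higher genes and below for 11 of 63 lower ones, with 45.4% and 13.1% over all genes.

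At 2-fold beyond the range in both assays there were 2 genes, Npy upward and Zfp984 downward. The Npy peak (chr6:49822388-49822557) had 7.54 CPM in DBA and 1.80, 2.13, 2.91 and 1.81 CPM in B6 1, 4, 44 and 51. Zfp984, a zinc finger gene of the chromosome 4 cluster that also holds Zfp979, had 2.46 CPM in DBA and 9.85 to 27.9 CPM in B6, and its peak (chr4:147809769-147809904) had no count in DBA and 3.40 to 6.63 CPM in B6. The RefSeq windows at these starts are printed because both assays lay 2-fold beyond the B6 range there, in the same direction. The Npy peak overlies 97 of the 300 bases of its window and the Zfp984 peak 135. The windows lie on the plus strand at chr6:49822460-49822759 and on the minus strand at chr4:147809739-147810038 (GRCm38.p6), with every CG in capitals.
Npy: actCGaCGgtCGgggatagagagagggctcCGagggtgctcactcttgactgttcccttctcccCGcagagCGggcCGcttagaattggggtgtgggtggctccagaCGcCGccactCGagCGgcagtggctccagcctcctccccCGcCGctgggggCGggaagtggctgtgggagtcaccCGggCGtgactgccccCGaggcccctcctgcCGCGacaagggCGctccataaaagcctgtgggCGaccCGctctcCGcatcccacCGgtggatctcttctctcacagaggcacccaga
Zfp984: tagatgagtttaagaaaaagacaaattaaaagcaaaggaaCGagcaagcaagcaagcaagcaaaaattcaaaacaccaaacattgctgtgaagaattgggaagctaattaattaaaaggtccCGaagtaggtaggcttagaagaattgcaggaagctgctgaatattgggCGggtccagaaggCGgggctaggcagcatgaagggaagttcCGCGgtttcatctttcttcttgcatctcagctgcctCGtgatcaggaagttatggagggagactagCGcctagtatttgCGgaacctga
The Npy window held 24 CG dinucleotides and 2 matches to TGCCGC, and that of Zfp984 held 9 and 0. At least as many CG were found in 20% and 45.8% of all windows, and TGCCGC at least once in 11.6%.

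Other genes with higher transcripts and peaks above the range were Fuca2, an alpha-L-fucosidase gene near Plagl1, Minar1, Slc30a10 and Arhgap45. Fuca2 had 28.7 CPM of transcript against 4.60 to 7.78 CPM, and 32.7 CPM at its peak against 4.05 to 19.4 CPM. Slc30a10, a manganese exporter, had 3.28 CPM against 0 to 0.476 CPM, with 47.3 CPM at its peak against 17.1 to 26.0 CPM. The Minar1 peak had 23.6 CPM against 7.50, 9.92, 13.4 and 10.4 CPM. Among lower genes the Rsph3b peak had 1.60 CPM in DBA and 20.5, 16.7, 2.91 and 19.9 CPM in B6, where B6 44 lay next to DBA and apart from the other B6 libraries. At Dusp6 and Zfp277 transcripts were low while the peak lay inside the range, with 91.2 CPM against 69.1, 70.2, 81.3 and 92.6 CPM at Dusp6. At Tent5c the transcript was high and the peak, 17.0 CPM against 17.7, 17.3, 13.4 and 20.2 CPM, lay inside the range. Genes named outside the fixed rule (Hmga1, Hmga1b, Gm13394, Rpl21, Zfp984, Fuca2, Slc30a10, the uncalled list members and those of the ATF4 and early Erk lists) were chosen after their values had been seen.

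**Figure D5:**
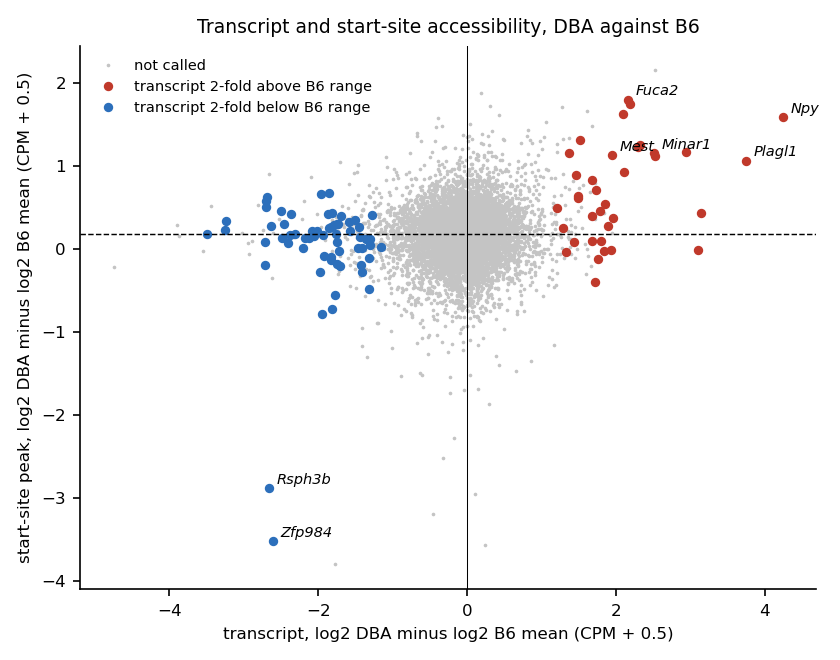
Difference between DBA and the B6 mean in the transcript (horizontal) and in the start-site ATAC peak (vertical), both log2, for 9130 genes, with called higher transcripts in red, called lower ones in blue and the median of all start-site peaks as a dashed line. Red points lie mostly above the dashed line, and blue points lie around it apart from Zfp984 and Rsph3b.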

How the data were processed

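Deposited gene counts and ATAC peak counts were used; the authors made them with Salmon, fastp, Bowtie2, MACS2, featureCounts and DESeq2 on build mm10 per the submitters' processing notes, which give no roles or versions. Poly(A) RNA was sequenced stranded and paired, and nuclei were used for Omni-ATAC, per the labels' protocols. Counts were scaled by TMM factors over all EpiSC libraries of each table (edgeR 4.0.16, R 4.3.3; Python 3.11.15, pandas 2.3.3). 17 columns of the peak table that belong to no sample here were left out. Genes were tested at a mean of DBA and B6 of at least 1 CPM and peaks at 2 CPM; the call rule and start-site peaks (RefSeq starts, GRCm38.p6, matched by symbol, 26011 of 29555 gene IDs placed) are given above, and the rule was tested on simulated data. Named genes were the 12 called genes with the widest gaps in each direction at 5 CPM or more in the higher strain, leaving out gene-model and pseudogene names, the up to 3 widest -ps or -rs names in each direction (1 was lower), the loci known to differ, and called list members; 1 of the lower genes is not reported here; named peaks were the 4 widest in each direction among those at or above the median level of 5.03 CPM. The members and lists were chosen with earlier results of these data known. Alternatives were other scalings, filters, pseudocounts, folds and B6 libraries left out.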

Additional observations from a re-analysis of the deposited data

Results flagged for a closer look

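In 12 of the 98 sets of B6 values looked at (62 named genes over 5 RNA libraries and 36 peaks over 4 ATAC libraries), 1 B6 library lay far from the others by Dixon's ratio. The usual chance rate of about 1 of 20 sets holds for normally distributed values. It does not apply here, since some sets have few or no counts and many were picked by the B6 range. The 12 are therefore listed only, and no excess is read from them. Of these, 5 concerned the library labelled B6 44. Its start-site peaks were high at Ndn (17.0 CPM against 0.810 to 2.71 CPM in the other B6 libraries) and at Mest (5.10 CPM against 2.70 to 3.04 CPM), both on the side of DBA, and low at Igsf11 (8.74 CPM against 11.7 to 12.1 CPM). Its transcripts were the highest for Gabra2 (0.166 CPM, with all other B6 libraries at 0) and Ifi202b (0.0331 CPM, with all others at 0), both close to the floor of 3 counts.

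The library B6 4 was high for Rpsa-ps10 (40.9 CPM against 5.83 to 8.13 CPM), Stab2 (0.480 CPM against 0 to 0.0994 CPM), Glp1r (3.14 CPM against 0.864 to 1.33 CPM) and Cdh23 (1.84 CPM against 0.715 to 1.03 CPM), and low for Myo5a (124 CPM against 158 to 172 CPM). At Rpsa-ps10, Stab2 and Myo5a this was on the side of DBA (1064, 17.4 and 107 CPM), and at Glp1r on the other (0.820 CPM). At Cdh23 DBA had 1.19 CPM, below B6 4 and above the other B6 libraries. B6 2 was high for Glo1 (145 CPM against 83.1 to 97.1 CPM), on the side of DBA. B6 51 had no count (0 CPM) at chr14:13493519-13493652, where the other B6 libraries had 2.10 to 2.43 CPM.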

How the results depend on the processing

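With 1 DBA library per assay nothing here is replicated on the DBA side, and the precision of low levels is set by counts, 3 counts being 0.112 CPM in the DBA RNA library and 0.481 CPM in its ATAC library. No paired analysis was possible because the DBA group has 1 library per assay and shares no replicate number with B6. Counting with 2 CPM added gave 82 genes higher and 69 lower, and 163 peaks higher and 616 lower. At a 4-fold distance 37 genes were higher and 25 lower, and 11 peaks higher and 288 lower. With 2-fold against the B6 mean alone the counts were 365 and 469 genes and 4358 and 6080 peaks, and at any distance 2505 and 2788 genes and 32771 and 13639 peaks. With at least 10 counts in every library 69 genes were higher, and 218 peaks were higher and 427 lower. With no filter 1407 peaks were higher and 7630 lower. Total library size gave 488 higher peaks and 12 called genes with an opposite start-site peak, and centring on start-site peaks, added after seeing the data, gave 349 higher peaks and 4 opposite genes.

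Leaving out each B6 library gave 132 to 167 genes higher and 116 to 144 lower, 1004 to 2211 peaks higher and 2249 to 3864 lower, 35 to 47 called genes with a start-site peak in the same direction and 23 to 54 in the opposite one. The farthest autosomal median stayed at 0.0414 to 0.0646 (log2), and 18 to 24 list genes were called. The opposite count of 54 and the lower count of 3864 came without B6 51, and the higher count of 2211 without B6 44. With B6 2 and B6 44 set aside, added after seeing the data, 236 genes were higher and 173 lower, with 76 start-site peaks in the same direction and 39 in the opposite one. Requiring a 2-fold peak left 2 genes in the same direction and 0 in the opposite one. RLE scaling, scaling on DBA and B6 alone, 0.1 CPM added and the restriction to autosomes kept all 4 counts of genes and peaks within 1.5 times. No named gene or peak changed direction under the settings run, and 6 calls of named genes were lost, all with 2 CPM added (Dlk1, Xlr3b, H2-Q2, Sp5, Kdr and H2-T10).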

Other observations

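The PWK and B6.129 F1 EpiSCs were measured beside the DBA line and share the B6 libraries as reference, so their values are set side by side and no count is drawn from them. Olig1 was as low in PWK (0 to 0.234 CPM) as in DBA (0.186 CPM), and in the F1 libraries it stood at 25.8 to 34.5 CPM. Slc15a2 ran from 0 to 0.0736 CPM in PWK and from 4.20 to 15.4 CPM in F1. The copies Tcea1-ps1 and Tgif2-ps2 had 20.0 to 22.9 CPM and 10.3 to 13.5 CPM in PWK, near the DBA levels of 22.6 and 13.3 CPM. Rps18 had 98.0 to 111 CPM in PWK and 895 to 997 CPM in F1, and Sfi1 216 to 229.9 CPM in PWK, above DBA.

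For other genes the DBA value lay outside all B6, PWK and F1 libraries. Plagl1 had 16.9 to 21.7 CPM in PWK and 8.12 to 9.01 CPM in F1 against 145 CPM in DBA. Grb10 had 266 to 341 CPM in PWK and 801 to 976 CPM in F1 against 36.8 CPM. Npy had 5.82 to 7.47 CPM and 0.933 to 1.93 CPM against 69.9 CPM, and Stab2 0 to 0.257 CPM and 0 to 0.0358 CPM against 17.4 CPM. Rpsa-ps10 had 5.45 to 7.65 CPM and 4.57 to 5.80 CPM against 1064 CPM. Mest had 34.9 to 57.5 CPM and 56.5 to 114 CPM against 286 CPM.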
